A study of Mus musculus with 12 samples.

Results

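The genes described here are 10 members of the cyclin and cyclin-dependent kinase families: the D-type cyclins Ccnd1, Ccnd2 and Ccnd3, the E-type cyclins Ccne1 and Ccne2, the A-type cyclin Ccna2, the B-type cyclins Ccnb1 and Ccnb2, and the kinases Cdk1 and Cdk2. They were taken by gene symbol from 12 RNA sequencing libraries, in which 16288 genes were listed at least once. All 10 members were listed in all 12 libraries, with counts between 85 and 9908, and 10 of 10 passed the filter on low counts. The cells were C2C12, an immortalized mouse myoblast line, so all libraries come from 1 line. They were harvested while proliferating in medium with fetal bovine serum (GM), or 24 h or 48 h after the medium of nearly confluent cells was changed to horse serum with insulin (DM 24h and DM 48h). At each stage, cells had received either DMSO, the vehicle, or 50 uM PFI-3, a small molecule that binds the bromodomains of BRM, BRG1 and PB1, which are subunits of SWI/SNF chromatin remodelling complexes. Both agents were given 12 h before harvest or induction and were renewed every 24 h in differentiation medium. There were 2 libraries, A and B, for each of the 6 groups. The labels do not tie them to separate cultures, so p-values rest only on the spread between these libraries, pooled over the 6 groups. That spread may be technical.

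A cyclin is the regulatory subunit that switches on a cyclin-dependent kinase. D-type cyclins bind Cdk4 and Cdk6 and respond to growth factors in G1, E-type cyclins bind Cdk2 at entry into S phase, cyclin A2 binds Cdk2 in S phase and Cdk1 later, and B-type cyclins bind Cdk1 to drive mitosis. Myoblasts must leave the cell cycle before they form myotubes, and cyclin D3 is known as the D-type cyclin that persists in differentiated muscle cells. In bulk RNA of this kind, fewer cycling cells and less transcript per cell cannot be told apart.

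Library totals of expected counts ran from 12576374 to 13658352. Replicates were farther apart in GM than later: the SD of the log2 ratio of library B to A over 10656 well-counted genes was 0.367 in GM with DMSO, 0.333 in GM with PFI-3, and 0.144 to 0.168 in the 4 DM groups. For the members the mean absolute log2 ratio was 0.14 and 0.27 in GM and 0.05 to 0.07 in DM. The main fit gives each gene a single spread shared by all groups. Comparisons that involve GM may therefore look too precise, and those within DM too imprecise. The 7 myoblast markers (Myod1, Myf5, Des, Pax7, Cdh15, Itga7 and Chrna1) were all detected in every group. Markers of fibroblasts, adipocytes, macrophages and endothelium summed to at most 49.0, 23.4, 9.76 and 1.80 CPM (TMM-scaled counts relative to the library size) in any library, against 758 to 5790 CPM for the myoblast markers. All 5 fibroblast and all 5 endothelial markers were listed in at least 1 library, as were 4 of 5 macrophage and 3 of 5 adipocyte markers. At least 3 of 5 adipocyte markers were at 0 in both libraries of each group.

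Promoter sequences are given for members with a role in mitosis and for 1 with another course. RefSeq promoters on GRCm38.p6, each 300 bases long (250 before to 50 after the start site), were matched by symbol for 6 of the 10 members, with 2 for Ccnd3, and not for Ccnd1, Ccnd2, Ccne2 and Ccna2. Those of Ccnb1, Ccnb2 and Cdk1, which were lower in DM 48h than in GM with DMSO, and of Cdk2, which was higher there, are printed here from 250 bases before to 20 after the start. Capitals mark 3 kinds of motif searched on both strands: the CHR element TTTGAA, the CCAAT box, which reads ATTGG on the other strand, and 4 E2F words, TTTCCCGC, TTTCGCGC, TTTGCCGC and TTTGGCGC. CHR elements and CCAAT boxes are known from promoters of G2 and M phase genes, and E2F words from genes switched on around S phase.
Ccnb1, chr13:100786467-100786736, minus strand: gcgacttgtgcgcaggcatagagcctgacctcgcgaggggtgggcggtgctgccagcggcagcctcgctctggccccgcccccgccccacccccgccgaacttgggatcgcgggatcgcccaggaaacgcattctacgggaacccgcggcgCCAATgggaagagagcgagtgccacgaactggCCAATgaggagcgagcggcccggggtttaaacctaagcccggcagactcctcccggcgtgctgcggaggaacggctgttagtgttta
Ccnb2, chr9:70421535-70421804, minus strand: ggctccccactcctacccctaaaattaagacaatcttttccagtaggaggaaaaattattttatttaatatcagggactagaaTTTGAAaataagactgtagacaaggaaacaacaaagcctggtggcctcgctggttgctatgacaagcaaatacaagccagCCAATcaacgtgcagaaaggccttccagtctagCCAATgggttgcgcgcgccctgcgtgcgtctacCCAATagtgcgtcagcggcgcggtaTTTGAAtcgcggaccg
Cdk1, chr10:69352893-69353162, minus strand: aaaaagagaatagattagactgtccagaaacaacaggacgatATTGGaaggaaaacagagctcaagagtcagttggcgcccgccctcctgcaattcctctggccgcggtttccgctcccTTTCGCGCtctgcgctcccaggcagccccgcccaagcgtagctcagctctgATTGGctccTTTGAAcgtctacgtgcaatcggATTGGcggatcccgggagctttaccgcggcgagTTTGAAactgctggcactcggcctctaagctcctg
Cdk2, chr10:128705032-128705301, minus strand: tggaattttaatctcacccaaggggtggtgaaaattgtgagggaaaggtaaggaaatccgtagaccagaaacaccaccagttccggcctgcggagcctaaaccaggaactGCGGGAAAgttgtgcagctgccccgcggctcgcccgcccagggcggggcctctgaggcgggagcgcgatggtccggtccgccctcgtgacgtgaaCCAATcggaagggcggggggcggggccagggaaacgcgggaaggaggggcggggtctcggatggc

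In the Ccnb2 promoter there were 3 CCAAT boxes, with first bases 33 and 33 apart, and 2 CHR elements, of which the second begins 5 bases into the transcript. The Cdk1 promoter held 3 CCAAT boxes in ATTGG orientation, 2 CHR elements and 1 E2F word (TTTCGCGC). In Ccnb1 there were 2 CCAAT boxes 32 apart and no match to TTTGAA, and the 2 nearer boxes of Cdk1 were also 32 apart. TTTGAA was the only CHR word searched, so other forms of the element would be missed. A pair of CCAAT boxes on 1 strand 32 or 33 bases apart occurred in 160 of 32851 mouse promoters of the same length (0.5%). This spacing was chosen for counting after the sequences had been seen. CCAAT boxes and CHR elements are common: 37.4% of those promoters held a CCAAT box, 17.9% a CHR element and 7.0% both. An E2F word was rarer, at 2.3%. Cdk2 held 1 CCAAT box and 1 E2F word, read here as GCGGGAAA. The Ccne1 promoter held none of the 3 motifs, and the downstream Ccnd3 promoter had 1 CCAAT box while the upstream one had none. These matches are letters in a window and were not tested for binding.

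With DMSO, 8 of the 10 genes ended far lower in DM 48h than in GM, and 2, Ccnd3 and Cdk2, ended higher. Ccnd1 fell by similar steps on both days (-2.27 and -2.12 on the log2 scale), whereas Ccna2 fell mostly on the second (-0.22 and -1.78). With PFI-3 the second step was smaller for all 8, and the test of this difference passed for 7. The other was Ccnd2 (-0.73 with DMSO, -0.14 with PFI-3). In DM 48h all 8 were higher with PFI-3 than with DMSO, and Ccnd3 and Cdk2 were lower. Calls were made at an adjusted p under 0.05 in edgeR's quasi-likelihood test over the 12545 genes that passed the filter. Between GM and DM 24h with DMSO, 2 members were called higher and 7 lower, where 30.6% and 30.0% of all genes tested were. Between DM 24h and DM 48h with DMSO, 2 were higher and 8 lower (all genes: 24.2% and 23.9%), and from GM to DM 48h again 2 and 8 (37.2% and 35.9%). The members' median log2 fold changes in these 3 comparisons were -0.58, -1.63 and -2.21, beside 0.02, 0.00 and 0.03 over all genes tested. These counts hold for genes that the same cells express together, so they are not independent of each other.

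**Figure D1:**
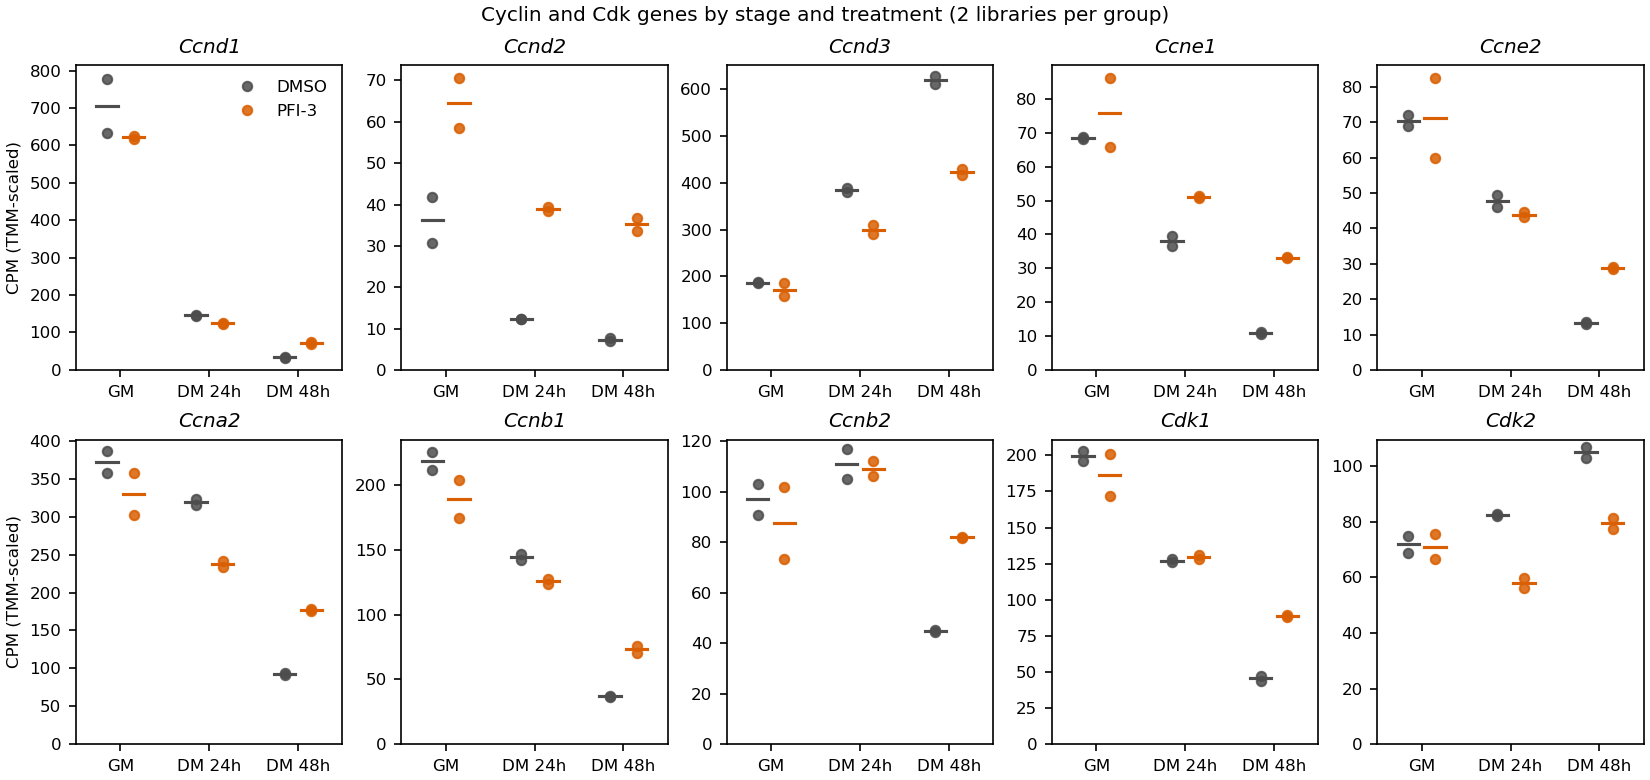
Level of each gene in CPM (TMM-scaled, linear axes from 0) at GM, DM 24h and DM 48h. Points are the 2 libraries of a group and short lines their means, grey for DMSO and orange for PFI-3. In DM 48h the orange points lie above the grey ones for 8 genes and below them for Ccnd3 and Cdk2.

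Among the D-type cyclins, Ccnd1 and Ccnd3 changed places. Ccnd1 (NCBI Gene 12443, chr7:144929931-144939831, GRCm38.p6, minus strand), the growth-factor-responsive cyclin D1, was at 777 and 632 CPM in the 2 GM DMSO libraries. It was at 144 and 148 CPM in DM 24h and at 34.6 and 32.4 CPM in DM 48h with DMSO. No 2 stages overlapped, and from GM to DM 48h Ccnd1 fell 21.0-fold (log2 fold change -4.39, SE 0.10, adjusted p 3.62e-12), more than any other member. With PFI-3 it was at 618 and 626 CPM in GM, 125 and 124 in DM 24h, and 74.2 and 69.0 in DM 48h. The PFI-3 libraries therefore lay slightly below the DMSO libraries at the first 2 stages and clearly above them in DM 48h. The differences of -0.18 in GM (adjusted p 0.194) and -0.22 in DM 24h (0.0878) were not called, and that of 1.10 in DM 48h (SE 0.10) was, with an adjusted p of 8.82e-06. On the second day of differentiation Ccnd1 fell 4.36-fold with DMSO and 1.74-fold with PFI-3, and this difference passed its own test (1.32 on the log2 scale, SE 0.13, adjusted p 7.66e-05).

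Ccnd3 (NCBI Gene 12445, chr17:47505051-47599689, plus strand) encodes cyclin D3. In DMSO libraries A and B it was at 185 and 188 CPM in GM, 380 and 390 in DM 24h, and 628 and 611 in DM 48h. It rose at each step, 2.06-fold on the first day (adjusted p 2.47e-07) and 1.61-fold on the second (1.06e-05). With PFI-3 it was at 158 and 185 CPM in GM, 309 and 290 in DM 24h, and 429 and 417 in DM 48h. Ccnd3 thus rose under PFI-3 too, but all PFI-3 libraries at both DM stages lay below their DMSO counterparts. The difference was -0.36 in DM 24h (SE 0.07, adjusted p 0.00447) and -0.55 in DM 48h (SE 0.07, adjusted p 1.76e-04). The call in DM 24h was lost without PFI-3 library B (adjusted p 0.0584). Between these 2 stages the difference in the PFI-3 effect (-0.19, adjusted p 0.284) was not called. It was called with only the libraries compared (0.0109, or 0.00982 when the fit was blocked by library letter) and with voom weights per stage (0.0383), fits in which 33.2%, 33.5% and 30.6% of all genes were called instead of 12.1%.

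Ccnd2 (NCBI Gene 12444, chr6:127125162-127152188, minus strand), which encodes cyclin D2, had the lowest level of the 10 genes per transcript length in every group and the largest PFI-3 effect of the 10 at every stage. It was at 41.7 and 30.6 CPM in GM, 12.3 and 12.2 in DM 24h, and 6.91 and 7.77 in DM 48h with DMSO. With PFI-3 the values were 70.5 and 58.5 CPM, then 38.5 and 39.3, then 33.7 and 36.7. The groups did not overlap at any stage, and with PFI-3 the change after DM 24h was not called (-0.14 from DM 24h to DM 48h, adjusted p 0.468). Ccnd2 was higher with PFI-3 by 0.84 in GM (SE 0.13, adjusted p 0.00217), 1.67 in DM 24h (SE 0.15, adjusted p 1.29e-05) and 2.26 in DM 48h (SE 0.16, adjusted p 2.13e-06). In linear terms these were 1.78-fold, 3.18-fold and 4.79-fold. The effect was larger in DM 48h than in GM (1.42, SE 0.21, adjusted p 9.69e-04). A fit of the 4 GM libraries alone lost the call in GM (0.85, adjusted p 0.168), and it was a fit that called 0.143% of all genes higher and 0.159% lower. Blocked by library letter, a fit of those 4 libraries kept it (0.86, adjusted p 7.00e-04), while 3.91% and 3.44% of all genes were called. Between DM 24h and DM 48h the PFI-3 effect on Ccnd2 differed by 0.59 (adjusted p 0.118), which was not called, and was called with only the libraries compared (0.00269, with the block 0.00255) and with voom weights per stage (0.0138).

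Per transcript length, the composition of the D-type pool turned over, while its sum changed much less. The summed FPKM (the authors' fragment values per transcript length and library size) of the 3 genes was 282 ± 15.6 (SD, n = 2) in GM, 242 ± 3.57 in DM 24h and 319 ± 6.59 in DM 48h with DMSO. The share of Ccnd1 in this sum was 64.5% in GM, 16.2% in DM 24h and 2.70% in DM 48h, and that of Ccnd3 was 33.4%, 82.9% and 96.9%. Ccnd1 transcripts thus made up most of the pool before induction and Ccnd3 transcripts nearly all of it in DM 48h. With PFI-3 the sums were 277 ± 8.90, 203 ± 7.63 and 250 ± 4.94, and in DM 48h Ccnd3 held 89.7%, Ccnd1 7.81% and Ccnd2 2.51%. Ccnd2 held 0.386% in the DMSO libraries in DM 48h. These sums and shares were not tested. FPKM summed over all genes also differed between libraries, from 441859 to 483638, so class sums are only roughly comparable across groups.

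**Figure D2:**
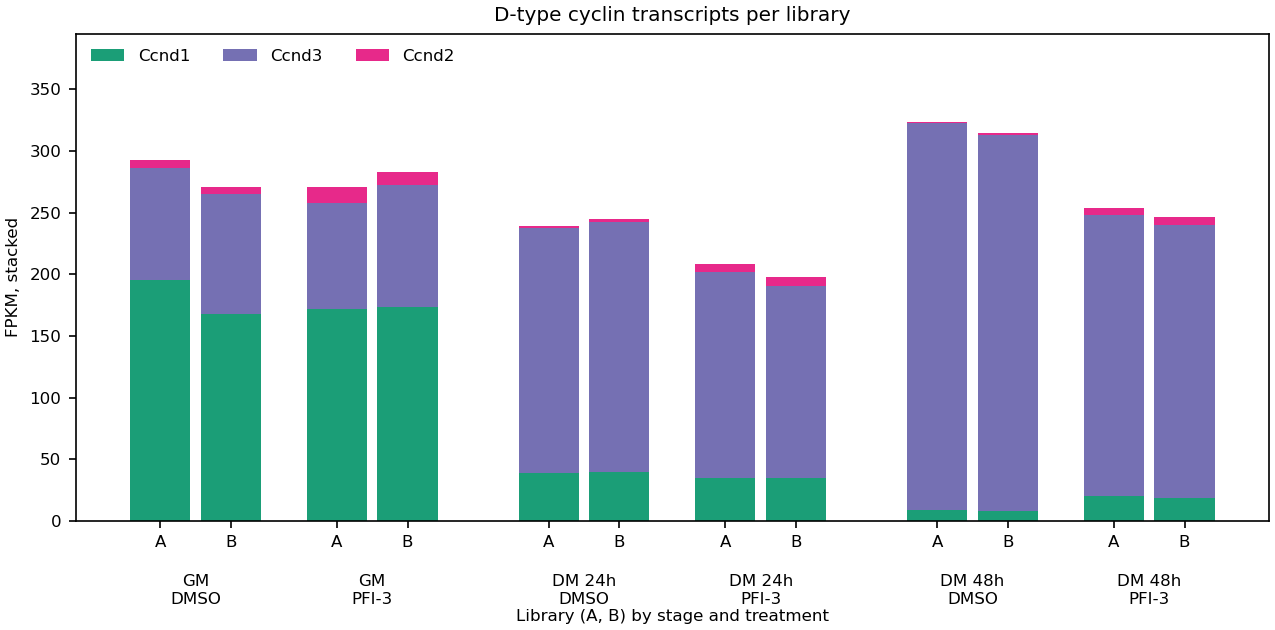
Stacked FPKM of Ccnd1, Ccnd3 and Ccnd2 in each of the 12 libraries (linear axis from 0). Ccnd1 (green) is the larger part in GM and a thin band in DM 48h, where Ccnd3 (violet) holds 96.9% with DMSO and 89.7% with PFI-3.

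Both E-type cyclins fell over differentiation with DMSO, and both were higher with PFI-3 in DM 48h. Ccne1 (NCBI Gene 12447, chr7:38097984-38107490, minus strand) was at 68.7 and 68.3 CPM in GM, 36.6 and 39.5 in DM 24h, and 10.6 and 11.1 in DM 48h with DMSO. The PFI-3 values were 65.8 and 86.2 CPM in GM, 50.8 and 51.3 in DM 24h, and 33.1 and 33.3 in DM 48h. In GM the groups overlapped, and at both DM stages the PFI-3 libraries were higher. The difference was 0.15 in GM (adjusted p 0.369), 0.42 in DM 24h (SE 0.11, adjusted p 0.0163) and 1.61 in DM 48h (SE 0.13, adjusted p 4.44e-06), the last a 3.06-fold excess. The DM 24h call was lost when any 1 of the 4 libraries compared was left out. Over the 13 alternatives the difference ran from 0.37 to 0.48. The effect in DM 48h exceeded that in DM 24h by 1.19 (SE 0.17, adjusted p 8.48e-04).

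Ccne2 (NCBI Gene 12448, chr4:11190433-11204779, plus strand), the second E-type cyclin, was at 68.8 and 72.1 CPM in GM, 49.5 and 46.0 in DM 24h, and 13.5 and 13.0 in DM 48h with DMSO. With PFI-3 it was at 59.9 and 82.6, 43.3 and 44.5, and 29.1 and 28.6 CPM. In DM 24h the PFI-3 libraries lay just below the DMSO libraries, and in DM 48h well above them. The differences were 0.02 in GM (adjusted p 0.958), -0.12 in DM 24h (0.52) and 1.12 in DM 48h (SE 0.15, adjusted p 1.40e-04). Summed over both genes, E-type FPKM with DMSO was 57.0 ± 2.86, 35.7 ± 0.0283 and 9.62 ± 0.0636 (SD, n = 2) across the 3 stages, and with PFI-3 it was 65.2 ± 13.0, 42.5 ± 0.453 and 27.3, the last in both libraries. Ccne1 held 54.7% to 63.8% of the E-type sum in every group, so neither gene displaced the other.

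Ccna2 (NCBI Gene 12428, chr3:36564865-36573038, minus strand), cyclin A2 of S and G2 phase, kept most of its level through the first day. It was at 387 and 357 CPM in GM, still at 315 and 323 in DM 24h, and at 93.6 and 91.8 in DM 48h with DMSO. The first-day fall was 1.17-fold (log2 fold change -0.22, adjusted p 0.0279) and its call was lost under 7 of 13 alternatives (adjusted p up to 0.126). The second-day fall was 3.44-fold (-1.78, SE 0.08, adjusted p 7.72e-09). With PFI-3 it was at 302 and 358 CPM in GM, 234 and 242 in DM 24h, and 178 and 175 in DM 48h. PFI-3 libraries were thus lower in DM 24h and higher in DM 48h, with no overlap at either stage. Both differences were called, -0.42 in DM 24h (SE 0.08, adjusted p 0.0026) and 0.93 in DM 48h (SE 0.08, adjusted p 7.68e-06). The change between them, 1.36 (SE 0.11, adjusted p 3.39e-05), was the largest among the members in that test.

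The B-type cyclins parted in DM 24h. Ccnb1 (NCBI Gene 268697, chr13:100778739-100786486, minus strand), the main mitotic cyclin, was at 226 and 212 CPM in GM, 147 and 142 in DM 24h, and 37.4 and 36.6 in DM 48h with DMSO. Ccnb2 (NCBI Gene 12442, chr9:70407689-70421554, minus strand), a second mitotic cyclin, was at 90.9 and 103, then 117 and 105, then 44.4 and 45.3 CPM. On the first day Ccnb1 fell 1.52-fold (-0.60, SE 0.08, adjusted p 3.59e-05), while Ccnb2 was not called (0.20, SE 0.12, adjusted p 0.18). On the second day both fell, Ccnb1 by 3.90-fold and Ccnb2 by 2.47-fold. Their difference in the first-day change was not tested. The share of Ccnb1 in the summed B-type FPKM was 59.7% ± 3.11 in GM, 46.0% ± 1.19 in DM 24h and 35.0% ± 0.641 in DM 48h (SD, n = 2).

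With PFI-3, Ccnb1 was at 175 and 204 CPM in GM, 124 and 128 in DM 24h, and 70.4 and 76.2 in DM 48h. Ccnb2 was at 73.5 and 102, then 106 and 112, then 82.2 and 81.7 CPM. In DM 48h all PFI-3 libraries of both genes were above the DMSO libraries, and the level of Ccnb2 there overlapped its own level in GM with PFI-3 (-0.10, adjusted p 0.497). The PFI-3 difference for Ccnb1 was -0.21 in GM (adjusted p 0.0996), -0.20 in DM 24h (0.0892) and 0.99 in DM 48h (SE 0.09, adjusted p 7.81e-06). For Ccnb2 it was -0.14 (0.49), -0.03 (0.891) and 0.87 (SE 0.13, adjusted p 3.96e-04). Ccnb1 and Ccnd1 in DM 24h were called lower when only the libraries of that stage were fitted (adjusted p 7.48e-04 and 1.43e-04). That fit called 22.8% of all genes higher and 21.9% lower, against 12.2% and 11.4% in the fit of all 12 libraries. Both genes were also called lower when that fit was blocked by library letter (all genes: 23.4% and 22.2%) and with voom weights per stage (22.0% and 21.7%).

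The kinase Cdk1 fell and Cdk2 rose between GM and DM 48h with DMSO. Cdk1 (NCBI Gene 12534, chr10:69335146-69352912, minus strand), the mitotic kinase, was at 203 and 196 CPM in GM, 128 and 126 in DM 24h, and 43.7 and 47.5 in DM 48h with DMSO. With PFI-3 it was at 172 and 201, 131 and 128, and 88.4 and 89.2 CPM. Its levels overlapped between treatments in GM and in DM 24h (-0.10 and 0.03, adjusted p 0.438 and 0.825), and in DM 48h PFI-3 libraries were 1.95-fold higher (0.96, SE 0.08, adjusted p 7.17e-06). Cdk2 (NCBI Gene 12566, chr10:128697938-128705051, minus strand), the kinase of cyclins E and A, was at 68.9 and 74.9 CPM in GM, 82.8 and 82.0 in DM 24h, and 103 and 107 in DM 48h with DMSO. Cdk2 rose 1.46-fold between GM and DM 48h (0.55, SE 0.08, adjusted p 4.25e-05). The first-day rise of 0.20 (adjusted p 0.0482) was lost under 9 of 13 alternatives (adjusted p up to 0.213).

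With PFI-3, Cdk2 was at 66.6 and 75.4 CPM in GM, 56.2 and 59.6 in DM 24h, and 77.4 and 81.4 in DM 48h. It dipped on the first day (-0.29, adjusted p 0.00709) and rose on the second (0.46, SE 0.08, adjusted p 0.00119). Against DMSO, Cdk2 did not differ detectably in GM (-0.02, adjusted p 0.906) and was lower by 0.51 in DM 24h (SE 0.08, adjusted p 8.44e-04) and by 0.40 in DM 48h (SE 0.08, adjusted p 0.00229). The DM 24h effect differed from that in GM by -0.49 (SE 0.11, adjusted p 0.0369), a call lost under 8 of 17 alternatives (adjusted p up to 0.174). The first-day fall was lost without PFI-3 library A of DM 24h or library B of GM (adjusted p 0.0643 and 0.0614).

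Levels per transcript length put the cyclin classes side by side at each stage. With DMSO in GM, summed FPKM was 282 for the D-type, 158 for the B-type, 109 for Ccna2 and 57.0 for the E-type cyclins. In DM 24h the values were 242, 140, 96.6 and 35.7, and in DM 48h 319, 45.1, 26.9 and 9.62. The order D, B, A, E was the same in all 6 groups, and ranges of neighbouring classes overlapped in none. All 4 classes were lower in DM 24h than in GM with DMSO, and by DM 48h the D-type sum was above its GM value and the other 3 were below theirs. FPKM summed over all genes was also lower in DM 24h with DMSO (441859 and 442194) than in GM (483638 and 483494). The class sums were not scaled for this, so small falls such as 158 to 140 and 109 to 96.6 are only roughly comparable. With PFI-3 in DM 48h the D-type sum was lower (250) and the others higher: 90.2 for the B-type, 54.4 for Ccna2 and 27.3 for the E-type.

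Gene by gene, the FPKM order in GM with DMSO was Ccnd1 (182), Ccna2 (109), Ccnb1 (94.3), Ccnd3 (93.8), Cdk1 (69.1), Ccnb2 (63.8), Ccne1 (33.9), Cdk2 (31.0), Ccne2 (23.0) and Ccnd2 (6.10). The library ranges of Ccnb1 and Ccnd3, of Cdk1 and Ccnb2, and of Ccne1 and Cdk2 overlapped. In DM 48h with DMSO the order had become Ccnd3 (309), Cdk2 (44.6), Ccnb2 (29.3), Ccna2 (26.9), Ccnb1 (15.8), Cdk1 (15.7), Ccnd1 (8.60), Ccne1 (5.33), Ccne2 (4.28) and Ccnd2 (1.23). Ccnd1 went from the top to the seventh place, Cdk2 from the eighth to the second, and only Ccnb1 and Cdk1 overlapped. With PFI-3 in DM 48h, Ccnd3 (224) again led, followed by Ccnb2 (56.9) and Ccna2 (54.4), and Cdk2 (35.9) came after them. The intermediate stage with DMSO kept Ccnd3 first (201), then Ccna2 (96.6), Ccnb2 (75.8) and Ccnb1 (64.4), with Ccnd1 (39.2) already behind Cdk1 (45.6).

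The course of differentiation was also tested within the PFI-3 libraries. From GM to DM 24h, 2 members were called higher and 8 lower (all genes: 32.1% and 28.2%), with a median of -0.55 against 0.04 over all genes. From DM 24h to DM 48h, 2 were higher and 7 lower (all genes: 13.1% and 14.2%), with a median of -0.49 against -0.04. From GM to DM 48h, 1 was higher and 7 lower (34.4% and 32.9%), with a median of -0.99 against 0.02. The first-day changes of both treatments were close for Ccnd1 (-2.27 with DMSO, -2.32 with PFI-3) and Ccnb1 (-0.60 and -0.59), with differences of -0.05 (SE 0.12, adjusted p 0.905) and 0.01 (SE 0.11, adjusted p 0.983). On the second day the A-, B- and E-type cyclins, Ccnd1 and Cdk1 fell by 0.41 to 0.80 with PFI-3 and by 1.31 to 2.12 with DMSO. The PFI-3 and DMSO comparisons between treatments and between stages share libraries, so they are given side by side and not as separate evidence. Ccnb2 rose on the first day with PFI-3 (0.31, SE 0.12, adjusted p 0.045), a call lost under 8 of 13 alternatives, with estimates from 0.09 to 0.57. The call of its second-day fall of 0.41 (adjusted p 0.0279) was lost when any 1 of the 4 libraries was left out. Estimates of that fall ran from -0.45 to -0.37 over the 13 alternatives. The second-day fall of Ccnd2 with DMSO (-0.73, SE 0.18, adjusted p 0.00571) was lost without DMSO library A of DM 48h (0.0517).

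**Figure D3:**
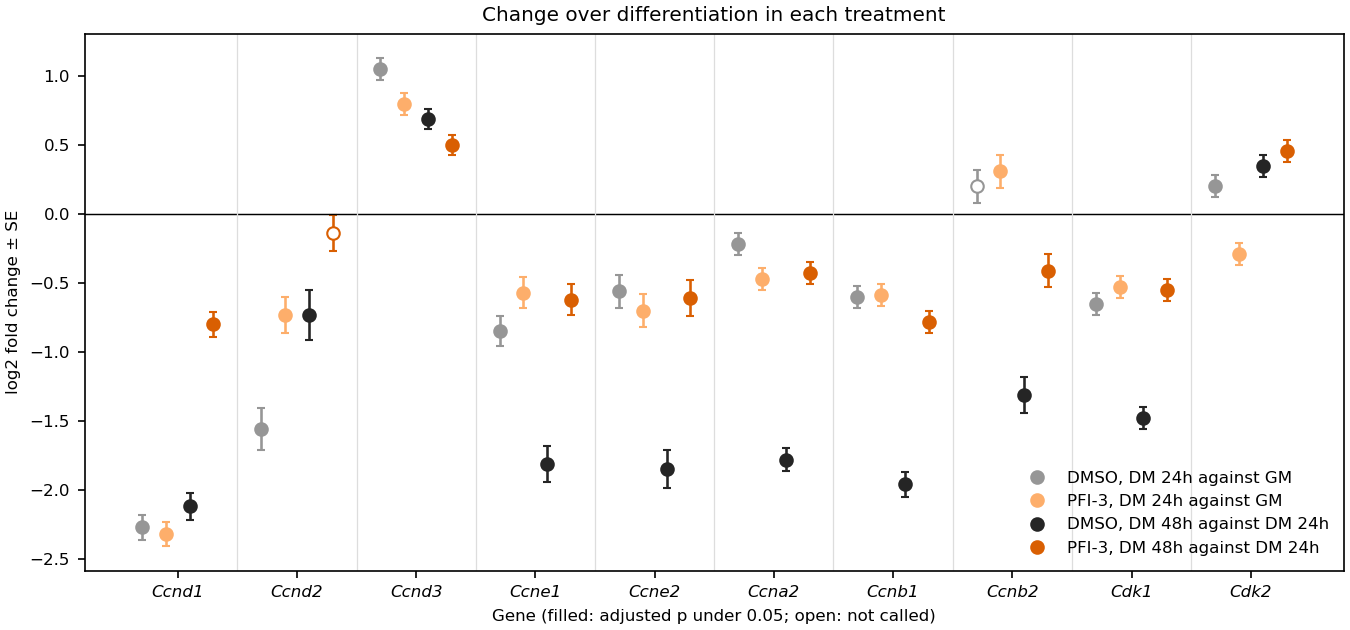
Log2 fold change with its SE for each gene from GM to DM 24h and from DM 24h to DM 48h, in DMSO (grey and black) and PFI-3 (light and dark orange). Filled points passed an adjusted p of 0.05 in edgeR. On the second day, black points lie below dark orange ones for Ccnd1, Ccne1, Ccne2, Ccna2, Ccnb1, Ccnb2 and Cdk1, for which the test of the difference passed.

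Calls between PFI-3 and DMSO were counted at each stage. In GM, 1 member (Ccnd2) was called higher and 0 lower, where 5.46% and 6.15% of all genes tested were called. At unadjusted p under 0.05, Ccna2 (0.0476) and Ccnb1 (0.0185) were lower in GM, and the DESeq2 Wald test also called 0 lower. The values in GM depended on single libraries. Without PFI-3 library B, Ccna2, Ccnb1 and Ccnb2 were at -0.30, -0.33 and -0.40. Without DMSO library B, Ccnd1 and Ccnb1 were at -0.32 and -0.26, and without PFI-3 library A Ccne1 was at 0.33. The share of all genes called was not counted in fits that left out a library. In DM 24h, 2 members were called higher and 3 lower (all genes: 12.2% and 11.4%), and in DM 48h 8 were higher and 2 lower (13.4% and 14.0%). Their median log2 fold changes were -0.11, -0.16 and 0.97, beside -0.01, 0.00 and 0.00 over all genes. All 10 calls in DM 48h held under each of the 13 alternatives run for that comparison. In GM the 2 letters gave uneven values: with PFI-3, Ccna2 differed by -0.36 in the A libraries and 0.00 in the B libraries, and Ccnb1 by -0.37 and -0.06. Ccnd2 was higher in both, by 0.76 and 0.93.

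Differences of the PFI-3 effect between stages were called for 2 members between GM and DM 24h (all genes: 3.37%), for 7 between DM 24h and DM 48h (12.1%) and for 10 between GM and DM 48h (14.5%). The 7 were Ccnd1, Ccne1, Ccne2, Ccna2, Ccnb1, Ccnb2 and Cdk1, with differences of 0.90 to 1.36 on the log2 scale. Ccnd3 (-0.43, adjusted p 0.0176) and Cdk2 (-0.39, 0.0374) were the 2 for which the effect in DM 48h was more negative than in GM. The first was lost under 6 alternatives and the second under 10, with adjusted p-values up to 0.0732 and 0.138. Markers of differentiated muscle (Myog, Mef2c, Myh3, Ckm, Acta1, Tnnt1, Mymk and Mylpf, 8 of 8 detected) were also compared between treatments. Their summed level was 6.94 to 12.2 CPM in the GM DMSO libraries and 9.53 to 11.3 with PFI-3, in DM 24h 2540 CPM with DMSO and 1030 to 1050 with PFI-3, and in DM 48h 17800 to 17900 with DMSO and 11700 to 11800 with PFI-3. All 8 were called lower with PFI-3 at both DM stages, where 11.4% and 14.0% of all genes were. Their median log2 fold change was -1.39 in DM 24h and -0.65 in DM 48h, beside -0.16 and 0.97 for the members. The 7 myoblast markers summed to 1250 to 1290 CPM with DMSO and 758 to 899 with PFI-3 in GM, 3410 to 3440 and 2230 to 2270 in DM 24h, and 5690 to 5790 and 4670 to 4790 in DM 48h. This sum rose over differentiation. From GM to DM 48h with DMSO, 6 of the 7 were called higher and Myf5 lower (-0.49, adjusted p 0.0109). Over all genes, 37.2% were called higher and 35.9% lower there. Of the 5 fibroblast markers, Pdgfra was higher with PFI-3 in DM 24h (1.14, adjusted p 0.00224) and DM 48h (1.07, 0.00263), and Dpt was lower in DM 48h (-1.27, 0.0198). Their sum was 6.98 to 11.6 CPM with DMSO and 11.1 to 18.1 with PFI-3 in GM, 27.2 to 28.1 and 39.5 to 42.4 in DM 24h, and 31.5 to 31.8 and 43.6 to 49.0 in DM 48h. Pparg, an adipocyte marker, was higher in DM 48h (0.77, adjusted p 0.035), while Adipoq and Fabp4 had at most 3 counts in any library. The part of these marker differences in the cyclin results was not tested.

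**Figure D4:**
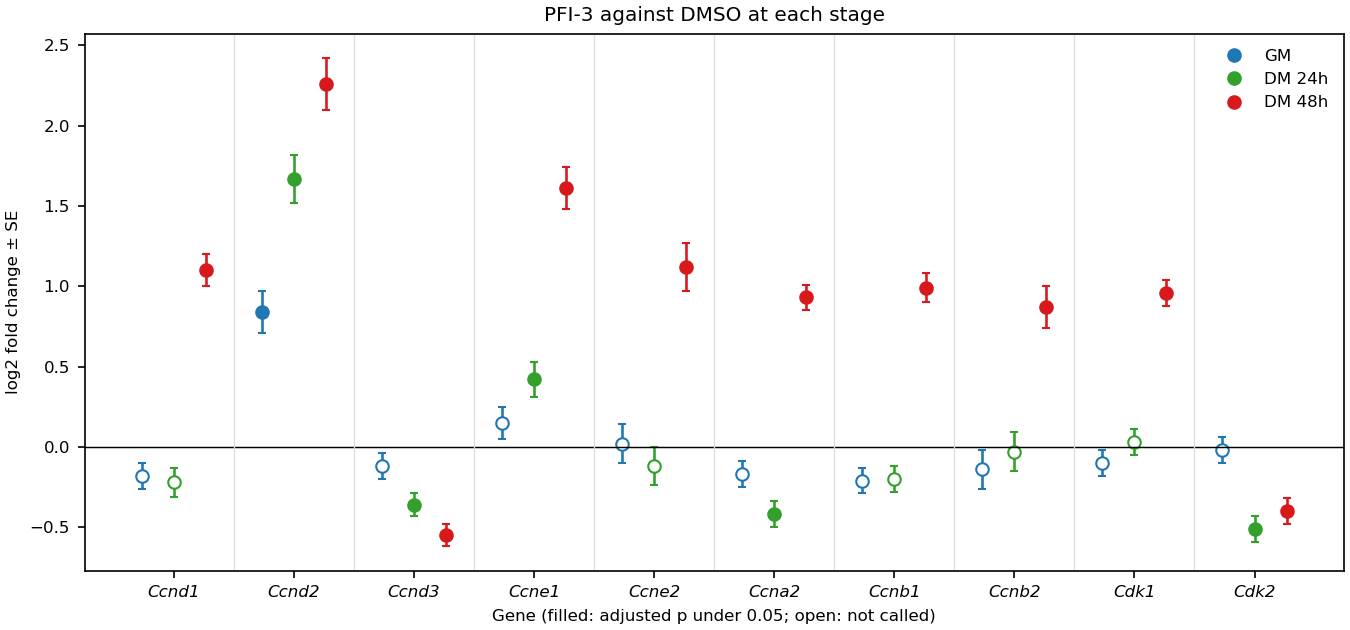
Log2 fold change with its SE for PFI-3 against DMSO at GM (blue), DM 24h (green) and DM 48h (red) for each gene. Filled points passed an adjusted p of 0.05 in edgeR. In DM 48h all 10 points are filled, 8 above 0 and Ccnd3 and Cdk2 below it, while in GM only Ccnd2 is filled.

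Other genes of the cyclin pathway were read from fixed lists. Of 8 activators of cyclin-CDK complexes (Cdc25 phosphatases, Cks subunits, Plk1, Aurka and Bora), 8 fell from GM to DM 48h with DMSO. Over all genes tested, 35.9% were called lower in that comparison. The median of the list was -2.25, and Aurka, a mitotic kinase, was lowest at -2.95 (adjusted p 2.35e-10). In DM 48h all 8 were higher with PFI-3 than with DMSO (median 0.71), led by Aurka at 1.16 (adjusted p 1.70e-05). Over all genes, 13.4% were called higher there. In DM 24h the median of the list was -0.10. Of the other cyclins and cell-cycle kinases, 6 of 9 were tested. In GM 1 of the 6 was lower with PFI-3 (all genes: 6.15%), Cdk4, the partner of the D-type cyclins (-0.43, adjusted p 0.00118). Cdk4 was not called in DM 24h (-0.01, adjusted p 0.941) and was higher in DM 48h (0.29, 0.0037). In DM 48h 3 of 6 were higher (median 0.16, all genes: 13.4% higher), led by Ccnf, which encodes cyclin F, at 1.19 (6.23e-06).

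Inhibitors of the complexes did not move as 1 group. Of 9 listed, 7 were tested. From GM to DM 24h with DMSO, 5 rose and 1 fell (all genes: 30.6% and 30.0%). The largest rise was that of Cdkn1c, which encodes p57, at 6.52 (adjusted p 2.29e-11), from at most 57 counts in GM to at least 3610. With PFI-3, Cdkn1c was lower in DM 24h (-1.84, adjusted p 9.99e-07) and DM 48h (-1.59, 1.56e-06). In DM 24h 1 inhibitor was higher and 2 lower (all genes: 12.2% and 11.4%). The rise was that of Cdkn1b, which encodes p27, at 0.44 (0.0122). In DM 48h 3 were higher and 2 lower (all genes: 13.4% and 14.0%). The largest rise there was that of Wee1, a kinase that holds Cdk1 inactive, at 1.03 (0.00152).

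Among 11 ubiquitin ligase parts that act on cyclins and their inhibitors, 5 were higher and 3 lower with PFI-3 in DM 48h (median 0.28). Over all genes tested, 13.4% were called higher and 14.0% lower there. Ube2c, the E2 enzyme of the anaphase-promoting complex, rose by 1.01 (adjusted p 1.08e-05), and Fbxw7, which targets cyclin E protein for destruction, was at -0.45 (0.0107). Of 20 pocket proteins, E2F, DREAM and mitotic transcription factors, 4 were higher and 4 lower in GM, 1 and 6 in DM 24h, and 8 and 1 in DM 48h (median 0.18). The shares over all genes were 5.46% and 6.15%, 12.2% and 11.4%, and 13.4% and 14.0%. Mybl2, which encodes B-Myb, led the rises in DM 48h (1.16, adjusted p 3.50e-04), and Rb1, the retinoblastoma gene, was the fall (-0.27, 0.0121). With DMSO, Rb1 rose by 2.26 from GM to DM 24h (2.93e-10), and Mybl2 fell by 3.61 from GM to DM 48h (8.51e-10).

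Across the 12 libraries 4 of the members were closely correlated. Ccna2, Ccnb1, Cdk1 and Ccne2 correlated with each other at 0.97 to 0.99 (Pearson r of log2 CPM). Ccne1 correlated with these 4 at 0.93 to 0.98, and Ccnb2 at 0.80 to 0.85. Single steps still differed: on the first day with DMSO, Ccna2 changed by -0.22 and Cdk1 by -0.65. Ccnd3 and Ccnd1 correlated at -0.97, and Cdk2 with Cdk1 at -0.72. These are descriptions over 12 libraries that share 3 stages, and most of their range is the stage. Among the 10366 genes that averaged 5 CPM or more, those closest to Ccna2 were Tpx2 (0.997), a spindle protein gene, Melk (0.997) and C330027C09Rik (0.996). Closest to Ccnd1 were Ssrp1, Pcolce2 and Nup160 (0.996 each), and closest to Ccnd3 were Pkig (0.998), Cd81 (0.994) and Svbp (0.994). Cdk2 had looser neighbours, Adgrg1 (0.973), Pold4 (0.944) and Bcl2l13 (0.940).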

How the data were processed

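RNA was sequenced from 12 C2C12 libraries, 2 in each of 6 groups read from the sample titles. The authors deposited 1 table per library with an expected count and an FPKM value per gene, per the file headers. The provider prepared the libraries, per the labels' protocols. HISAT, StringTie, Cufflinks, Bowtie, RSEM and DESeq2 and the build mm10 are named, without roles or versions, per the submitters' processing notes. Values within 0.005 of a whole number made up 93.3% to 93.7% of the expected counts per library, and 0 of the 120 member values were fractional by that tolerance, so no read of a member was seen to be split with another gene. A gene missing from a table was taken as 0.

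Expected counts were rounded, scaled by TMM and tested with edgeR 4.0.16 (R 4.3.3) in 1 quasi-likelihood fit of 6 groups over 12 libraries. The filterByExpr function kept 12545 of 16288 genes, and p-values were adjusted over them by Benjamini-Hochberg. Groups within a gene are compared in CPM, and genes with each other in FPKM, as the authors deposited it. Class sums in FPKM are also set side by side across groups, without a test. Log2 fold changes carry the SE from the same fit. The alternatives were other size factors, DESeq2 1.42.0, no filter, the replicate letter as a block, only the libraries compared (with and without the block), limma 3.58.1 on log2(FPKM + 1) and log2(FPKM + 0.1), voom weights per stage, and leaving out each library. All 10 members were named. From each other list at most the largest called rise and fall of a comparison were named, and for 4 members the 3 genes of closest pattern. Cdk4, named for GM, was also given at the other stages. The members and lists were chosen with earlier results of these data known. The tests were also run on simulated data with the same spread in all groups, which does not cover the wider spread in GM. Promoters come from RefSeq (GRCm38.p6) and figures were drawn with matplotlib 3.10.9.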

Additional observations from a re-analysis of the deposited data

Results flagged for a closer look

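Stages differed in their PFI-3 effect by edgeR's interaction test over all 12545 genes, in 19 cases among the members. Between GM and DM 24h it differed for Ccnd2 by 0.83 on the log2 scale (adjusted p 0.0435) and for Cdk2 by -0.49 (0.0369). These calls were lost under 9 and 8 of 17 alternatives. Between DM 24h and DM 48h it differed for Ccna2 by 1.36 (3.39e-05), Ccnd1 by 1.32 (7.66e-05), Ccne2 by 1.24 (0.00124), Ccne1 by 1.19 (8.48e-04), Ccnb1 by 1.18 (7.35e-05), Cdk1 by 0.93 (2.68e-04) and Ccnb2 by 0.90 (0.00621). Ccna2 was lower with PFI-3 in DM 24h and higher in DM 48h, both by a called difference.

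Between GM and DM 48h the effect differed for all 10 members. The differences were 1.46 for Ccne1 (adjusted p 1.77e-04), 1.42 for Ccnd2 (9.69e-04), 1.27 for Ccnd1 (9.45e-05), 1.20 for Ccnb1 (8.98e-05), 1.11 for Ccna2 (9.58e-05) and 1.11 for Ccne2 (0.00209). They were 1.06 for Cdk1 (1.09e-04), 1.01 for Ccnb2 (0.00288), -0.43 for Ccnd3 (0.0176) and -0.39 for Cdk2 (0.0374). Comparisons between these 3 tests share libraries, so a gene that appears in 2 of them was not measured anew.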

How the results depend on the processing

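Of 120 results (10 members in 12 comparisons), 91 were called; 78 of these held under every alternative run, 13 were lost under at least 1 and 0 changed sign. Of the 29 not called, 12 were called under at least 1 alternative. Fitted on the libraries compared alone without a block, 0 members were called higher with PFI-3 in GM instead of 1. In DM 24h, 5 instead of 3 were called lower in that fit, with the block in it, and with voom weights per stage, where 21.9%, 22.2% and 21.7% of all genes were called lower instead of 11.4%. From GM to DM 24h with DMSO, 1 instead of 2 was called higher with other size factors, DESeq2, no filter, voom weights and the libraries compared (with and without the block). With PFI-3 the same step gave 1 instead of 2 with other size factors, DESeq2, both FPKM fits and the libraries compared. For the stage difference between DM 24h and GM, the 1 higher call became 0 in both FPKM fits and the 1 lower call 0 with voom weights, and both became 0 in the libraries compared with and without the block. Between DM 48h and DM 24h, 1 instead of 0 was lower in those fits and with voom weights. Between DM 48h and GM, 2 lower calls became 1 with DESeq2 and voom weights and 0 in the libraries compared with and without the block. Leaving out 1 library gave these ranges: with PFI-3, 1 to 2 higher and 0 to 3 lower in GM and 1 to 1 higher in DM 24h; from GM to DM 24h 1 to 2 higher in either treatment; from GM to DM 48h with PFI-3 1 to 2 higher; for the stage differences 0 to 1 higher and 0 to 1 lower (DM 24h against GM) and 0 to 2 lower (DM 48h against GM). The share of all genes called was not counted when a library was left out, so these ranges have no such share beside them. The cause of these changes was not tested.

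Sign changes occurred 28 times, all in results not called, and 0 were called under the alternative. For PFI-3 in GM, leaving out 1 library gave -0.06 to 0.33 for Ccne1, -0.24 to 0.23 for Ccne2 (also -0.02, and -0.00 with voom weights), -0.40 to 0.08 for Ccnb2, -0.22 to 0.01 for Cdk1, and -0.11 to 0.07 for Cdk2 (also 0.04, and 0.08 in both FPKM fits). In DM 24h, Ccnb2 ranged from -0.10 to 0.05 (also 0.01, and 0.02 in both FPKM fits), and Cdk1 was at -0.00 with other size factors and DESeq2. From GM to DM 48h with PFI-3, Ccnb2 ranged from -0.32 to 0.16. The stage difference DM 24h against GM ranged from -0.20 to 0.10 for Ccnd1, -0.35 to 0.11 for Ccne2, -0.10 to 0.37 for Ccnb2 and -0.09 to 0.13 for Ccnb1, with -0.01 for Ccnb1 under other size factors and DESeq2 and -0.03 in both FPKM fits.

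With the replicate letter as a block over all 12 libraries, 8 members were called higher and 2 lower with PFI-3 in DM 48h, as without it, and no count of members moved by over 1.5 times. The labels do not say what the letters stand for, so they were not taken as pairs. The deviations of same-letter libraries correlated at 0.488 between the 2 GM groups, 0.018 in DM 24h and 0.037 in DM 48h. Same-letter libraries in GM thus deviated partly together, which the main fit does not model. A block over all 12 libraries assumes the same letter shift at every stage, so it cannot capture a shift confined to GM. None of the 9 alternatives other than leaving out a library moved the median of all genes by over 0.1 on the log2 scale. That median was not taken when a library was left out. With 2 libraries per group, precision is limited most in GM, where replicates lay farthest apart.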
